A study of Mus musculus with 6 samples.

Results

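The Wnt genes described here are the ligands, Frizzled receptors and secreted antagonists of the pathway, together with 10 single genes of its co-receptors, relay and feedback. They were taken from the deposited gene counts by name, as every symbol that starts with Wnt, Fzd, Sfrp or Dkk and a digit, plus Axin2, Lef1, Tcf7l1, Tcf7l2, Ctnnb1, Lrp5, Lrp6, Lgr4, Rnf43 and Znrf3. This gave 45 of the 18005 genes in the table, of which 35 had at least 10 counts over the 6 libraries. The libraries are RNA sequencing of heart tissue from 3 young and 3 old mice, all wild type and without treatment. The series title sets the comparison in pathological cardiac hypertrophy of ageing. Age, strain and sex are not given in the labels used here. The titles number the mice from 1 to 3 in each group, and libraries are named below as young 1 to 3 and old 1 to 3. Nothing in the labels says more about the animals, so p-values measure the spread between these 6 libraries.

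Wnt ligands are secreted lipid-modified proteins that bind Frizzled receptors on the same or neighbouring cells. In the canonical branch the ligand joins a Frizzled to an LRP5 or LRP6 co-receptor, the complex that destroys beta-catenin is stopped, and beta-catenin enters the nucleus to act with TCF and LEF factors. Other branches signal through Frizzleds to cell polarity and calcium without beta-catenin. In the heart the pathway is known from development and from scar formation and remodelling after injury, and its activity in the healthy adult heart is low.

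In old hearts, the antagonist gene Sfrp2 and the feedback gene Axin2 were lower, and the antagonist gene Sfrp5 was higher. Sfrp5 entered the test through its level in old hearts, as only 1 of the 3 young libraries had enough counts. Receptor genes split, with Fzd4 higher and Fzd2, Fzd6, Fzd7 and Fzd8 lower, and the ligand gene Wnt11 was higher. Of the 35 described members, 25 had enough counts to be tested, with edgeR's quasi-likelihood test on all genes and a threshold of 0.05 on the Benjamini-Hochberg adjusted p. Of these 25, 4 were called higher and 8 lower in old hearts, and 13 were not called. Over all 12893 genes tested 22.8% were called, 11.6% higher and 11.2% lower, against 48% of the tested members, 16% higher and 32% lower. The median log2 fold change of old over young was -0.31 over the tested members and -0.01 over all genes tested. In 14 of the 25 members the young and old libraries did not overlap in CPM (counts scaled to library size, with TMM factors), which held for 39.9% of all tested genes. The number of falls was 4 without young 1, without young 3 or without old 1. Over all genes, falls numbered 798, 768 and 910 in these fits, in place of 1438. The number of rises was 2 without young 2 or without old 2, where rises over all genes numbered 1340 and 1378, in place of 1500. With library size alone in place of TMM the counts were 3 higher and 10 lower, and on the deposited FPKM values (counts scaled to gene length and library size) 2 were higher.

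**Figure D1:**
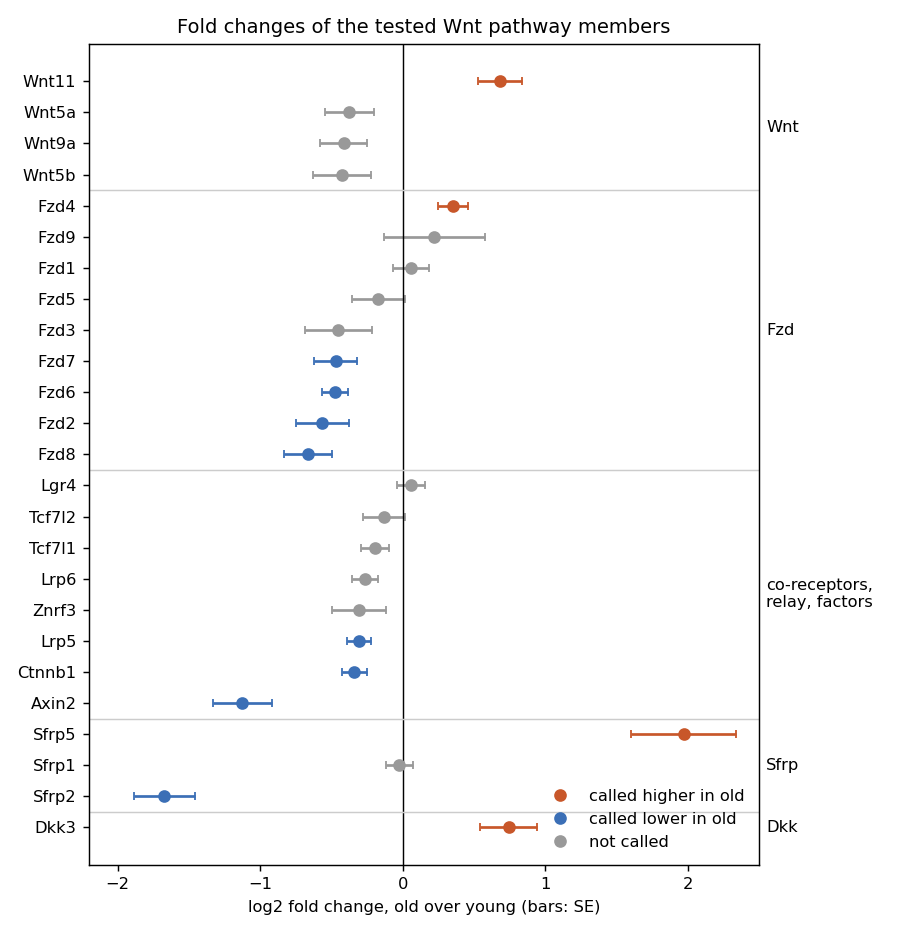
Log2 fold change of old over young hearts (horizontal axis) for each of the 25 tested members, grouped by family, with bars for the SE of the edgeR fit. Orange points were called higher, blue points lower and grey points were not called. Sfrp5 at 1.97 and Sfrp2 at -1.67 lie farthest from 0.

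Library totals were between 11295280 and 12514005 counts, so that 1 count was worth 0.0774 to 0.0885 CPM, and 15295 to 15585 genes had a count. Heart muscle genes were abundant in every library. The summed level of 8 cardiomyocyte markers was 51860 to 54454 CPM in young and 56048 to 59309 CPM in old libraries, without overlap. Of these 8, Tnni3 was called higher (0.35 ± 0.09) and the other 7 were not called, with a median log2 fold change of 0.05 over the list. The summed levels of 10 fibroblast markers (3878 to 4205 against 3892 to 4776 CPM), 10 endothelial markers (2785 to 3013 against 2284 to 3133 CPM) and 10 smooth muscle and pericyte markers (1672 to 1923 against 1706 to 1906 CPM) overlapped. Within the last list Pdgfrb (-0.69 ± 0.1), Cspg4 (-0.66 ± 0.14) and Notch3 (-0.38 ± 0.09) were called lower and Tagln and Cnn1 higher. The other 5 were not called, among them Rgs5, at a mean of 746 CPM in young and 793 CPM in old hearts (0.09 ± 0.08). Dkk3, a member described below and called higher, is 1 of the 7 atrial markers. These 7 markers summed to 358 to 431 CPM in young and 73.1 to 136 CPM in old libraries, without overlap. Most of that sum was Nppa, the natriuretic peptide gene, at 335 to 409 CPM in young and 49.2 to 113 CPM in old libraries (-2.32 ± 0.34). Myl7, Sln and Bmp10 were at or below 1.42 CPM throughout. The sum thus follows Nppa and is not a measure of how much atrial tissue the samples held. The 6 valve and conduction markers did not overlap either, at 140 to 153 CPM against 100 to 126 CPM, with Prox1, Gja5 and Etv1 called lower and Tbx3 higher. The other marker lists overlapped in their sums. Among them, 6 red blood cell markers summed to 2162 CPM in young 1 and 16078 CPM in young 2, and to 3193 to 6802 CPM in old libraries. None of these 6 was called, with a median log2 fold change of -1.09, and the blood content of the libraries was not adjusted for. In bulk tissue, fewer cells of a type and less RNA per cell cannot be told apart. The part of these marker levels in the results that follow was not tested, except where a value is given beside a result.

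The sequence just before the gene start is shown for Sfrp5, Sfrp2 and Axin2, the members with the largest fold changes among those called. The sequences are the 250 bases upstream of the start in RefSeq's annotation of the GRCm38.p6 build, read 5′ to 3′ on the strand of the gene, with CG dinucleotides in capitals. GRCm38.p6 is older than the GRCm39 build of the submitters' processing notes, and the windows were matched by gene symbol.
Sfrp5: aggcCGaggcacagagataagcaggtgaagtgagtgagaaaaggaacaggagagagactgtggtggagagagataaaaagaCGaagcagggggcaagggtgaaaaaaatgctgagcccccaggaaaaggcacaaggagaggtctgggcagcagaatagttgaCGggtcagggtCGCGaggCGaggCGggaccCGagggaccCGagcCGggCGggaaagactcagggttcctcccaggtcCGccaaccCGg
Sfrp2: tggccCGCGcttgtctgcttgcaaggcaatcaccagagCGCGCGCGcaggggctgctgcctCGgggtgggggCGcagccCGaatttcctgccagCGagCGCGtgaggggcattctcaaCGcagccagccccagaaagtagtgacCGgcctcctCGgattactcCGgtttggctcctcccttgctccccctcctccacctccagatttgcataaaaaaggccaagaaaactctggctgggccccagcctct
Axin2: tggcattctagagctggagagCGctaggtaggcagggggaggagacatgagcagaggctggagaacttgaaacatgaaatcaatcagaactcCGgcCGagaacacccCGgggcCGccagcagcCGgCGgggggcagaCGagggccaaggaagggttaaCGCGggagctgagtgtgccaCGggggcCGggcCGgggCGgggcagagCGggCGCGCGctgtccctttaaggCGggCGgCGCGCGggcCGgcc
These windows lie at chr19:42202253-42202502 on the minus strand for Sfrp5, at chr3:83766071-83766320 on the plus strand for Sfrp2 and at chr11:108920099-108920348 on the plus strand for Axin2. The Axin2 window holds 24 CG dinucleotides, that of Sfrp2 16 and that of Sfrp5 13, against a median of 6 and quartiles of 2 and 16 over the 32851 windows of the table. The core letters of the TCF and LEF motif, CTTTGA or CTTTGT on either strand, are in none of these 3 windows of 300 bases, which reach 50 bases past the start. They are in 31.2% of all windows, and in a window of 6 of the 15 tested members that the table holds. Those 6 are Fzd1, Fzd7, Tcf7l1, Tcf7l2, Wnt11 and Wnt5b, of which Fzd7 and Wnt11 were called.

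Among the 18 Wnt ligand genes, 10 had at least 10 counts and 4 were tested. Wnt11, a ligand of the beta-catenin-independent branch with a role in heart development, had 5.62, 5.27 and 5.03 CPM in young 1 to 3 and 8.5, 7.6 and 9.45 CPM in old 1 to 3. Every old library was above every young one, and Wnt11 was the only ligand among the 12 called members. Its log2 fold change was 0.68 ± 0.16 (SE, edgeR adjusted p = 0.0062), from a mean of 5.31 ± 0.297 to 8.52 ± 0.921 CPM (SD, n = 3). The call held whichever library was left out. With a pseudocount of 1 on FPKM, which shrinks folds of low genes, it was 0.45.

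The other tested ligands had lower means in old hearts and did not pass the test with TMM scaling and all 6 libraries. Wnt9a had 10.5, 9.49 and 12.3 CPM in young and 7.08, 7.17 and 9.97 CPM in old libraries, so that old 3 lay among the young ones (log2 fold change -0.42 ± 0.16, edgeR adjusted p = 0.078). Without old 3 it was called lower, at -0.59, as it was with library size alone, at -0.49. Wnt5b, like Wnt5a a ligand of the branches without beta-catenin, had 4.92, 4.13 and 5.11 CPM in young and 3.01, 3.28 and 4.25 CPM in old libraries (-0.43 ± 0.2, edgeR adjusted p = 0.14). Wnt5a ranged from 7.03 to 11.2 CPM in young and from 6.74 to 7.37 CPM in old libraries (-0.37 ± 0.17, edgeR adjusted p = 0.13). Its spread lay in the young group, and without young 2, the lowest of them, it was called lower at -0.53.

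Measured per length, Wnt9a had the highest level of the ligands in young hearts and Wnt11 in old hearts. Wnt9a was at 3.25 FPKM in young and 2.31 in old hearts, and Wnt11 at 2.45 and 3.72 FPKM. Wnt11 made up 26.3% ± 3.34 of the summed FPKM of all 18 ligand genes in the young group and 41.8% ± 1.03 in the old one (SD, n = 3), with 22.8% to 29.5% against 40.6% to 42.7%. The share of Wnt9a was 34.7% ± 2.07 in young and 25.8% ± 2.41 in old hearts. The sum itself was 9.38 ± 1.14 FPKM in young and 8.92 ± 1.29 FPKM in old hearts, and the libraries overlapped. Shares of a sum depend on each other, and they are given as a description with no test.

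The remaining ligand genes were near the detection limit. Wnt2, Wnt2b, Wnt4, Wnt6, Wnt9b and Wnt10b had 31 to 55 counts over the 6 libraries and did not pass the filter on low counts. Wnt10b had 20 counts in young and 35 in old libraries, Wnt2b 24 and 7, and Wnt9b 32 and 12. Wnt4 had 10, 7 and 11 counts in young and 2, 7 and 7 in old libraries, at 0.615 to 0.851 CPM against 0.177 to 0.607 CPM. None of these 6 was called by edgeR when all genes with a count were tested, and 1, Wnt2b, had an unadjusted p under 0.05 there. Wnt7b had 5 counts in all, Wnt8b 2 and Wnt16 1. Wnt1, Wnt3, Wnt3a, Wnt7a and Wnt10a had 0 counts in every library, as did Fzd10 and Dkk1. A count of 0 allows up to 3 counts, which is 0.232 to 0.266 CPM in these libraries, for counting error only.

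Frizzled genes encode the membrane receptors of Wnt proteins, and 9 of 10 were tested. Fzd4 is abundant in endothelium, where it also serves as the receptor of norrin. It had 103, 117 and 128 CPM in young 1 to 3 and 127, 163 and 154 CPM in old 1 to 3. Old 1 lay just below young 3, so the groups overlapped. The log2 fold change was 0.35 ± 0.11 (SE, edgeR adjusted p = 0.027), and it was no longer called when young 1, young 2 or old 2 was left out, when library size alone set the scale, or on FPKM. Of 10 endothelial markers tested beside it, 1 was called higher (Esam, an adhesion molecule gene, at 0.37 ± 0.09) and 1 lower (Tek, the angiopoietin receptor gene, at -0.5 ± 0.1), with a median log2 fold change of -0.15.

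Fzd6, a receptor known from planar cell polarity, had 36.3, 40.4 and 36.3 CPM in young and 25.1, 27.9 and 28.1 CPM in old libraries. All old libraries were below all young ones. Its log2 fold change was -0.48 ± 0.09 (edgeR adjusted p = 0.0019), and it was called whichever library was left out.

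Fzd8 had 10.6, 9.22 and 12 CPM in young and 5.14, 7.95 and 7.02 CPM in old libraries, with no overlap (-0.66 ± 0.17, edgeR adjusted p = 0.012). Fzd7 had 12.7, 12.7 and 15 CPM against 7.53, 10.5 and 11.2 CPM (-0.47 ± 0.15, edgeR adjusted p = 0.035). Fzd2 had 7.81, 5.97 and 6.81 CPM against 4.69, 3.72 and 5.55 CPM (-0.56 ± 0.19, edgeR adjusted p = 0.041). The calls of these 3 receptors did not hold in every fit with a library left out, though their direction did. In those fits the log2 fold change was -0.80 to -0.50 for Fzd8, -0.57 to -0.31 for Fzd7 and -0.70 to -0.42 for Fzd2. Fzd8 was not called without young 3 or old 1, Fzd7 without young 1, young 2, young 3 or old 1, and Fzd2 without young 1, young 3, old 1 or old 2. The log2 fold change of Fzd7 was -0.31 without old 1. Fzd7 and Fzd2 were also not called by DESeq2, Fzd7 with the gene length trend removed, and Fzd2 by edgeR without robust estimation.

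Fzd1 (0.06 ± 0.13), Fzd3 (-0.45 ± 0.24), Fzd5 (-0.17 ± 0.19) and Fzd9 (0.22 ± 0.35) were not called. Fzd1 had 12.3, 11.7 and 13.5 CPM in young and 12.3, 12 and 14.8 CPM in old libraries, so that its groups lay on top of each other. For Fzd3 the groups did not overlap, at 2.64 to 3.59 CPM in young and 1.95 to 2.6 CPM in old libraries, but the edgeR adjusted p was 0.18. Fzd9 was the most variable, from 0.703 to 2.09 CPM within the young group.

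The make-up of the Frizzled family differed between the groups. Fzd4 took 39.9%, 43.6% and 44% of the summed Frizzled FPKM in young 1 to 3 and 54.4%, 57.2% and 54.1% in old 1 to 3. Fzd6, next in level, took 24.6% ± 2.41 of it in the young group and 17.9% ± 0.924 in the old one (SD, n = 3). The shares of Fzd7 (7.42% ± 0.281 to 5.42% ± 0.548) and Fzd8 (8.39% ± 0.82 to 5.35% ± 0.647) did not overlap between groups either. That of Fzd1 was 7.56% ± 0.319 and 8.06% ± 0.963. The summed level was 38.8 ± 2.6 FPKM in young and 36.1 ± 3.91 FPKM in old hearts. Its old over young ratio was 0.931 on FPKM and 1.05 on summed TMM-scaled CPM, so the direction of the family sum depended on the unit.

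**Figure D2:**
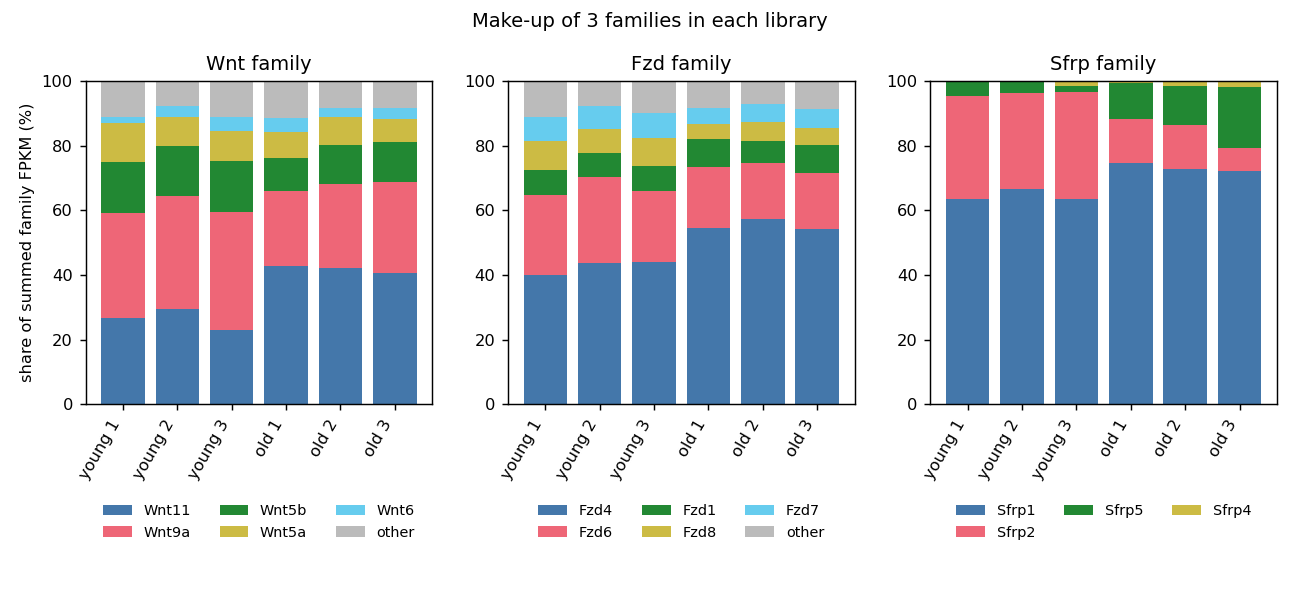
Share of each gene in the summed FPKM of its family (vertical axis, percent) for the Wnt, Fzd and Sfrp families, with a stacked bar for each of the 6 libraries. The 5 genes of highest mean FPKM are coloured and any others are in grey. In old libraries Wnt11, Fzd4 and Sfrp5 take more, and Wnt9a, Fzd6 and Sfrp2 less, than in any young library.

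Of the co-receptor and relay genes, Lrp5 and Ctnnb1 were modestly lower and Lrp6 did not pass the test. Lrp5, which encodes a co-receptor of the canonical branch, had 139, 133 and 146 CPM in young and 110, 118 and 110 CPM in old libraries without overlap (-0.31 ± 0.08, edgeR adjusted p = 0.015). Its call depended on young 1, young 3 and old 1, each of which ended it when left out. Lrp6, its close relative, had 69.7, 67.2 and 73.2 CPM against 62.7, 61.2 and 51 CPM. Its groups did not overlap, and it stood just outside the threshold (-0.27 ± 0.09, edgeR adjusted p = 0.051). Without old 3, its lowest library, its log2 fold change was -0.17, and it passed with upper-quartile factors, library size alone, no filter, and FPKM values filtered on their mean. Per length, Lrp5 was at 27.7 FPKM in young and 21.2 in old hearts, and Lrp6 at 7.85 and 6.17 FPKM.

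Ctnnb1 encodes beta-catenin, which also links cadherins at cell junctions, and it was the most highly expressed member. It had 566, 520 and 528 CPM in young and 446, 407 and 422 CPM in old libraries, all old below all young. The log2 fold change was -0.34 ± 0.09 (edgeR adjusted p = 0.011), and the call was lost without young 1. The transcription factor genes Tcf7l1 and Tcf7l2 were not called. Tcf7l1 had 22.2, 25.1 and 26 CPM against 22, 21.1 and 21.1 CPM (-0.19 ± 0.1), and Tcf7l2 7.5, 8.43 and 8.75 CPM against 8.32, 6.91 and 7.28 CPM (-0.13 ± 0.15). Lef1, another factor of this family, had 13 counts in all and was not tested.

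Axin2 is a scaffold of the beta-catenin destruction complex and a widely used target gene of canonical signalling. It had 4.84, 4.39 and 5.42 CPM in young 1 to 3 and 2.12, 2.33 and 2.25 CPM in old 1 to 3. The old libraries were close to each other and all below every young library. Its log2 fold change was -1.13 ± 0.21 (SE, edgeR adjusted p = 0.0014), that is 2.18-fold lower, and it ranked 120 by fold among the 1438 genes called lower. It was called in every fit that held it, with values from -1.21 to -1.04, and was too low for the FPKM fits with a filter. These levels rest on 24 to 27 counts in each old and 50 to 70 counts in each young library.

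Among the single genes that act on Frizzled levels, Znrf3 and Lgr4 were not called and Rnf43 was not tested. Znrf3, a ubiquitin ligase that removes Frizzleds from the membrane, had 5.39, 4.74 and 6.42 CPM in young and 3.9, 4.93 and 4.59 CPM in old libraries (-0.31 ± 0.19, edgeR adjusted p = 0.26). Its relative Rnf43 had 31 counts in all, 19 in young and 12 in old libraries. Lgr4, a receptor of R-spondins, which protect Frizzleds from these ligases, had 23, 21.4 and 20.7 CPM against 20.8, 23.2 and 23.8 CPM (0.06 ± 0.1, edgeR adjusted p = 0.71). No test of the difference between Axin2 and these genes was made.

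**Figure D3:**
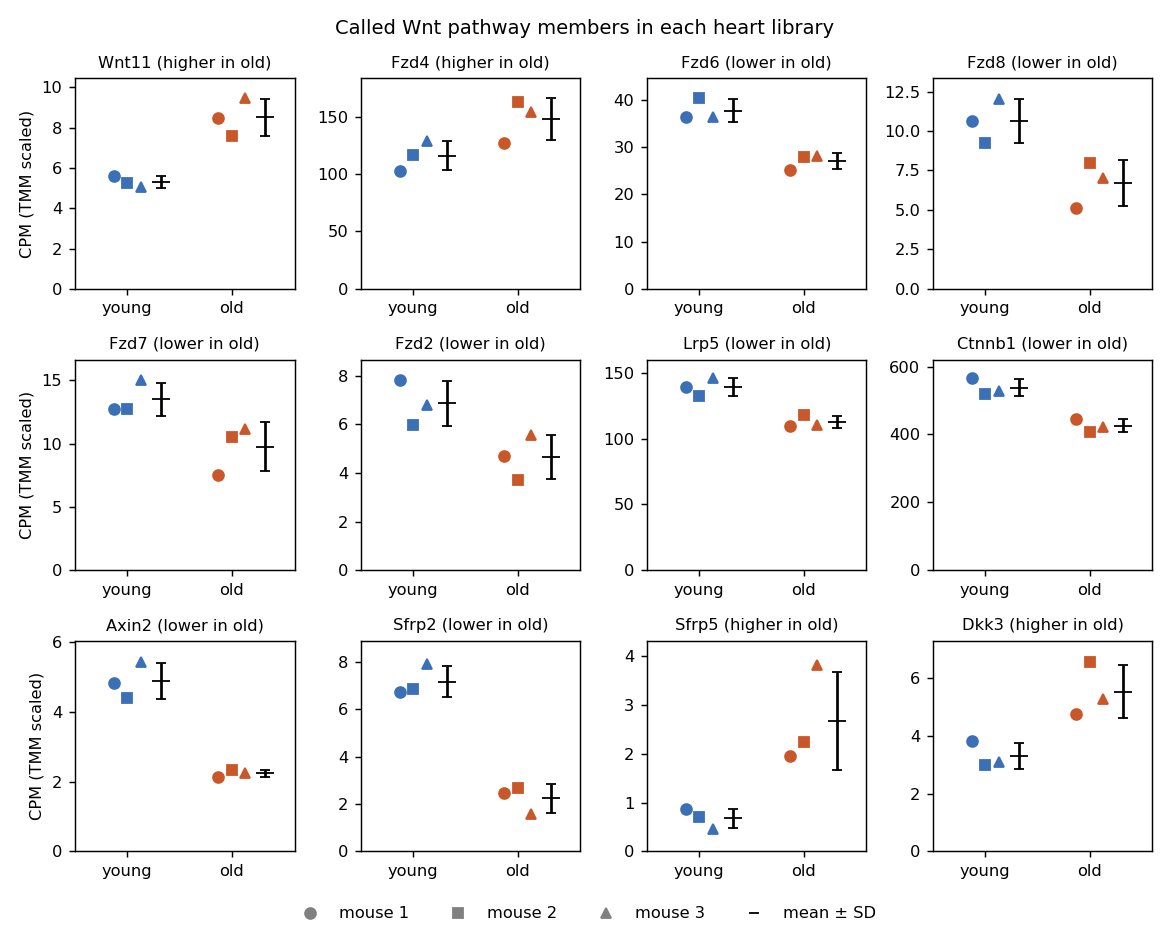
TMM-scaled CPM (vertical axes from 0) in each of the 3 young (blue) and 3 old (orange) libraries for the 12 called members, with marker shapes for the mouse number and black bars for mean ± SD. Fzd4 is the panel in which old and young libraries overlap, and in Sfrp5 old 3 at 3.81 CPM stands above old 1 and old 2.

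The secreted Frizzled-related proteins resemble the ligand-binding part of Frizzleds and bind Wnts outside the cell, and 2 of their 3 tested genes changed in opposite directions. Sfrp2 had 6.71, 6.85 and 7.89 CPM in young 1 to 3 and 2.48, 2.68 and 1.56 CPM in old 1 to 3. The gap between the lowest young and the highest old library was wider than the range within either group. Its log2 fold change was -1.67 ± 0.21 (SE, edgeR adjusted p = 6.5e-05), 3.19-fold lower, which ranked 44 among the 1438 genes called lower. It was called in every fit, with values from -1.82 to -1.17, the smallest on FPKM values with a pseudocount of 1.

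Sfrp5 is known as an antagonist of Wnt5a that fat tissue secretes. It had 0.859, 0.703 and 0.464 CPM in young 1 to 3 and 1.95, 2.25 and 3.81 CPM in old 1 to 3. All old libraries were above the young ones, and old 3 was highest. The log2 fold change was 1.97 ± 0.37 (edgeR adjusted p = 0.0016), 3.92-fold higher, which ranked 64 among the 1500 genes called higher. It was called in every fit that held it, with a lowest value of 1.63, reached without old 3 and on FPKM values with no filter. Only 1 of the 3 young libraries reached the count filter, so Sfrp5 was tested by virtue of its level in old hearts, and it rests on 6 to 11 counts in each young and 22 to 44 in each old library.

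Marker lists set beside Sfrp5 overlapped between the groups in their summed levels. The 6 adipocyte markers were close to 0, with a summed level of 0.234 to 1.23 CPM in young and at most 0.62 CPM in old libraries, and Ucp1 at 0 in all of them. Of 12 epicardial and mesothelial markers 10 were tested and 1 was called, higher. It was Wt1, an epicardial transcription factor gene, at 1.67 ± 0.13. The other 9 had log2 fold changes from -1.10 to -0.08, and the median over the list was -0.50. The summed level of the list was 38.3 to 96 CPM in young and 52.7 to 86.4 CPM in old libraries. The fibroblast list beside Sfrp2 had 2 genes called higher, Mfap5 (0.4 ± 0.11) and Lum (0.28 ± 0.09), and 1 lower, Tcf21 (-0.51 ± 0.12), of 10, with a median of 0.07.

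Sfrp1 was the most abundant member of its family per length and did not differ beyond its spread. It had 30.2, 34.6 and 34.1 CPM in young and 30.6, 32.1 and 34.6 CPM in old libraries (-0.02 ± 0.09, edgeR adjusted p = 0.88). Sfrp4 had 14 counts in all. Within the family sum of FPKM, the share of Sfrp2 went from 31.4% ± 1.68 to 11.5% ± 3.64, that of Sfrp5 from 3.17% ± 1.11 to 14% ± 4.15 and that of Sfrp1 from 64.6% ± 1.83 to 73.2% ± 1.34 (SD, n = 3). The ratio of Sfrp5 to Sfrp2 in FPKM was 0.135, 0.108 and 0.062 in young and 0.827, 0.883 and 2.57 in old libraries. In old 3 Sfrp5 was thus above Sfrp2, and in the other 5 libraries below it. The family sum was 11.7 ± 0.666 FPKM in young and 9.61 ± 0.849 FPKM in old hearts, without overlap between libraries, and on summed CPM its libraries overlapped.

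Dickkopf proteins are a further class of secreted antagonists, several of which block LRP5 and LRP6. Dkk3, a divergent member that is not known to act on these co-receptors in the same way, had 3.83, 2.99 and 3.1 CPM in young and 4.78, 6.57 and 5.29 CPM in old libraries. The groups did not overlap, and the log2 fold change was 0.74 ± 0.2 (edgeR adjusted p = 0.015). Dkk3 is also on the list of atrial markers, whose summed level, mostly Nppa, was lower in old hearts. It lost its call with DESeq2, on FPKM with no filter, and when young 2, young 3 or old 2 was left out. Dkk2 had 1, 3 and 6 counts in young 1 to 3 and 0 in every old library. All 10 of its counts were in young libraries, so it reached the limit of 10 counts for description through that group. With 3 counts set for the old group and the young counts taken as observed, it was 3.09-fold lower in old hearts. This value leaves out the error of the young counts, so it is not a lower bound. It was below the count filter, and was called lower only when all genes with a count were tested.

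Beyond these members, 92 other symbols of pathway genes had been listed by role, among them Wisp1 and Troy, second names of Ccn4 and Tnfrsf19. Of the 92 symbols, 87 are in the table and 71 were tested. Of these 71, 4 were called higher and 17 lower, 29.6% in all, and 50 were not called, with a median log2 fold change of -0.09. Over all genes the share called was 22.8%. By direction, 23.9% of the 71 were lower against 11.2% over all genes, and 5.63% were higher against 11.6%. With the gene length trend removed 10 were higher and 11 lower, while in every other fit rises were 11.5% to 35% of the calls. DESeq2 gave 11 falls in place of 17, and edgeR gave 9 without young 1, 10 without young 3 and 9 without old 1. Over all genes, falls in these fits numbered 1008, 798, 768 and 910, in place of 1438. The 4 rises were 2 without young 2 or young 3, and 7 without old 2.

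Among other secreted agonists and antagonists 1 of 5 tested genes was called, against 22.8% of all tested genes. Sost, which encodes the LRP5 and LRP6 inhibitor sclerostin, had 6.4, 7.99 and 6.73 CPM in young and 1.68, 3.72 and 1.21 CPM in old libraries (-1.67 ± 0.3, edgeR adjusted p = 0.0026). Its groups did not overlap, and it was called in every fit. Among co-receptors and alternative receptors Adgra2, a co-activator of Wnt7 signalling in vessels, was lower (-0.35 ± 0.11), though not when young 1, young 2, old 1 or old 3 was left out. The 3 tested genes of ligand secretion and removal did not pass the edgeR test. Among them Wls, which carries Wnts to the cell surface, stood at 51.2 to 52.9 CPM in young and 55.7 to 62.5 CPM in old libraries (unadjusted p = 0.039).

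In the relay and destruction complex 1 gene of 21 was higher and 6 were lower. Over all tested genes 11.6% were called higher and 11.2% lower. Amer1, a membrane partner of the complex, had 11.8, 12.5 and 12.8 CPM in young and 5.31, 4.23 and 8.67 CPM in old libraries (-1.03 ± 0.2). Dact1, a Dishevelled-binding regulator, had 13.3, 11 and 13.7 CPM against 7.08, 6.22 and 7.37 CPM (-0.88 ± 0.14). Tnks, a tankyrase that marks Axin for degradation, was at -0.57 ± 0.11, and the kinase gene Gsk3b at -0.28 ± 0.09. Amer1, Dact1 and Tnks were called in every fit, while Gsk3b was not when young 1, young 3, old 1 or old 3 was left out. The higher gene was Nkd2 (0.59 ± 0.2), named after its value was seen, a call held only without old 2 among the fits with a library left out.

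Of 14 tested genes of the polarity and calcium branch 5 were called, all of them lower, where 11.2% of all tested genes were called lower. Daam1, a formin that acts downstream of Dishevelled, had 115, 119 and 115 CPM in young and 61.4, 85.8 and 53.6 CPM in old libraries (-0.8 ± 0.15, edgeR adjusted p = 0.0046). Daam2 (-0.57 ± 0.1) and the polarity cadherin gene Celsr1 (-0.82 ± 0.18) were lower too. These 3 were called whichever library was left out. Prickle2 (-0.38 ± 0.12) was lower too, a call held only without old 3 among the fits with a library left out.

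Among 13 nuclear factors 2 were higher and 3 lower, where 11.6% of all tested genes were called higher and 11.2% lower. The corepressor gene Tle3 (0.47 ± 0.1) and Cby1 (0.49 ± 0.11), whose product binds beta-catenin, were higher, and Jup, which encodes the junctional beta-catenin relative plakoglobin, was lower, with 469, 406 and 487 CPM in young and 306, 331 and 338 CPM in old libraries (-0.48 ± 0.09). These 3 were called whichever library was left out. Pygo1 (-0.41 ± 0.12), a partner of the beta-catenin complex, was called lower with all 6 libraries. Among the fits with a library left out, its call held only without old 2.

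Genes listed as canonical targets went both ways, with 1 higher and 1 lower of 6 tested, against 11.6% and 11.2% of all tested genes. Ephb3, a receptor gene known as a target in gut epithelium, had 14.6, 16.1 and 16.2 CPM in young and 7.97, 6.05 and 7.02 CPM in old libraries (-1.15 ± 0.13, edgeR adjusted p = 3.1e-05). Myc had 8.43, 5.01 and 7.51 CPM against 10.5, 10.8 and 17.7 CPM (0.89 ± 0.24, edgeR adjusted p = 0.028), a call lost without young 2 or young 3. Ephb3 was called in every fit. Both genes respond to other pathways as well.

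**Figure D4:**
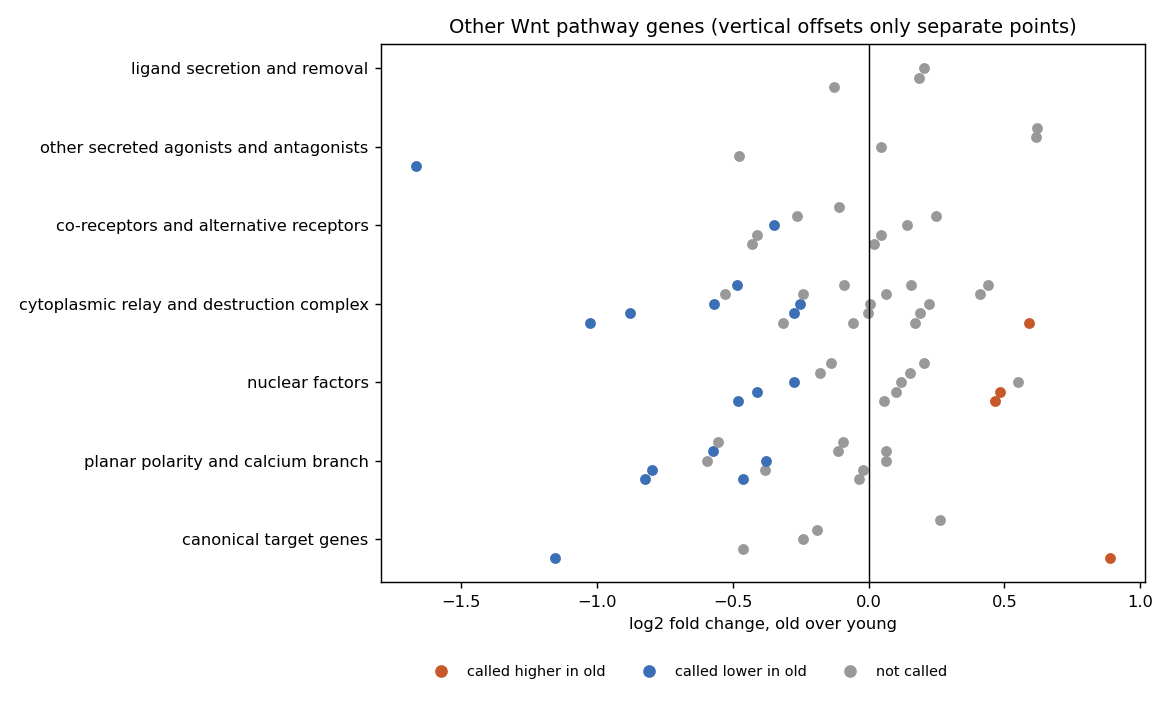
Log2 fold change of old over young hearts (horizontal axis) for the 71 other tested pathway genes in 7 lists by role, each point a gene, orange for called higher, blue for called lower and grey for not called. The leftmost point is Sost at -1.67, and all 5 called genes of the polarity and calcium branch lie left of 0.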

How the data were processed

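Per the labels' protocols, mirVana columns gave the RNA and TruSeq Stranded mRNA chemistry the libraries. The submitters' processing notes name the GRCm39 build and DESeq, StringTie, Cufflinks, HTSeq, Bowtie2, HISAT2 and Trimmomatic. No version, role or strand setting is given in the sources used here. Whether the counting told reads of overlapping antisense genes apart is therefore not known. The deposited values include raw counts, whole numbers for each gene in each library. The deposited FPKM values follow from the same counts, with 1 length for each of 16964 genes within a relative deviation of 6.9e-07.

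The count test was that of edgeR 4.0.16 under R 4.3.3 (filterByExpr, TMM, robust quasi-likelihood fit, group as the only term), with Benjamini-Hochberg adjustment over all genes tested. The SE is the absolute log2 fold change over the root of F. FPKM served for levels between genes and for family sums. The test was checked on simulated counts. Alternatives were other scalings and filters, DESeq2 1.42.0, limma-voom and limma on log2(FPKM + pseudocount of 1 or 0.1) with limma 3.58.1, removal of the gene length trend, a replicate block, and each library left out. Members and lists were chosen with earlier results of these data known. Values by library are given for called members, the 3 members of highest FPKM per family and the 10 single genes, and up to 4 called genes of smallest p per other list are named.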

Additional observations from a re-analysis of the deposited data

How the results depend on the processing

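Of the 12 called members, 5 (Axin2, Fzd6, Sfrp2, Sfrp5 and Wnt11) were called whichever library was left out and in every other fit that held them, and none of the 12 changed direction. Sfrp5 among them passed the count filter through its level in old hearts. With a library left out, rises among members numbered 2 to 4 and falls 4 to 9, those among other pathway genes 2 to 7 and 9 to 17, and all called genes 1672 to 3142. At an adjusted p under 0.01 there were 2 rises and 3 falls among members, 2 and 9 among other pathway genes, and 1415 calls in all. Limma on FPKM values gave 2 rises among members with either pseudocount and with no filter, and, with no filter, 2 rises and 10 falls among other pathway genes. Other pathway genes numbered 11 falls with DESeq2, and 10 rises and 11 falls with the gene length trend removed. Rises made up 51.1% of all called genes under TMM, 39.8% under upper-quartile scaling, 32% under library size and 35.1% on FPKM. The causes of these changes were not tested. Summed CPM in place of FPKM gave old over young ratios of 1.05 for Fzd and 0.917 for Sfrp, against 0.931 and 0.823. A change of sign was seen in 4 members, all of them called in no fit. Fzd1 was at -0.019 with library size alone and at -0.015 and -0.021 on FPKM with pseudocounts of 1 and 0.1, the latter also with no filter, and from -0.032 to 0.13 with a library left out. Lgr4 was at -0.022, -0.019 and -0.023 under these settings. Sfrp1 was at 0.024 with the length trend removed and from -0.085 to 0.022 with a library left out, and Fzd9 from -0.079 to 0.63. The correlation of deviations from the group means was 0.078, 0.078 and 0.0067 between libraries of the same number, so the numbers were not taken as pairs, and young 3 correlated best with old 2. The fit with a replicate block called 4 members higher and 9 lower, Wnt9a in addition (-0.42), and 2839 genes in all. The edgeR fit without robust estimation was added after seeing the data, as were the family sums with a library left out. It called 4 and 7 members and 2835 genes. The levels near 1 CPM rest on few counts, which limits what can be said of most ligand genes.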
